A study of Macaca mulatta with 449 samples.

Results

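The 7 genes described here differed in RNA level between the 3 dissected parts of the macaque striatum, the nucleus accumbens (ACb), the caudate nucleus (CN) and the putamen (PUT). They are CARTPT, CALCR, RXFP2, TG, KRT77, AMBN and SLC5A12, 7 of the 30807 genes with deposited counts, and each symbol matched 1 gene identifier. The genes were chosen by their counts in ACb, CN and PUT in the same 24 samples, so their differences among these 3 sub-regions are given as a description without a test. The samples outside the striatum, and the differences between animals, were not used in that choice and were tested. Earlier results of these data were, however, known when the genes were chosen.

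RNA was sequenced after removal of ribosomal RNA from 51 sub-regions of the brain of 8 healthy rhesus macaques, 408 samples in all, with 1 sample per sub-region and animal. Animals 2 and 3 were males of 10 years, and animals 6 and 11 were females of 10 and 9.8 years. These 4 are called mid-aged. The 4 young animals were males 7 and 8, of 4 and 3.8 years, and females 4 and 10, of 3.2 and 5 years. All came from a single source and the labels name no treatment. Each sample was a piece of dissected tissue, so it held a mixture of cell types. Between 7842729 and 12153518 reads per striatal sample were counted on genes, against 7784678 to 31083490 over all samples. Levels are given as CPM, the usual library-size-scaled unit of counts, with library sizes adjusted by the TMM method of edgeR, and they compare samples for 1 gene, not genes with each other.

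The striatum is the main input structure of the basal ganglia and consists mostly of medium spiny neurons, which receive glutamate from the cortex and thalamus and dopamine from the ventral midbrain. ACb forms its ventral part and is tied to reward and feeding, whereas CN and PUT form the dorsal part, which is tied to action selection and movement. CARTPT encodes the precursor of the CART peptides, which act in feeding and reward. CALCR encodes the calcitonin receptor, which also forms amylin receptors together with RAMP proteins, and RXFP2 encodes the relaxin family receptor for INSL3. TG encodes thyroglobulin, the protein on which thyroid hormone is made in the thyroid. KRT77 encodes a type II keratin known from skin, and AMBN encodes ameloblastin, a protein of the tooth enamel matrix. SLC5A12 encodes a sodium-coupled transporter for lactate and other monocarboxylates, known from kidney and gut.

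The labelled tissue carried its markers. The summed level of 8 medium spiny neuron genes lay between 4149 and 6087 CPM in ACb, between 6151 and 8665 CPM in CN and between 5829 and 8046 CPM in PUT, against 1145 CPM at most in the globus pallidus (GP). Some libraries held markers of neighbouring tissue. The summed level of 4 cortical excitatory neuron genes was 298 CPM in ACb of animal 10, 73.0 CPM in ACb of animal 11 and 152 CPM in PUT of animal 3, with medians of 8.74 and 4.83 CPM in these sub-regions. It was 614 CPM in the hypothalamus (HTHA) of animal 6, with a median of 15.9 CPM there. GP of animal 3 held DRD1, a dopamine receptor of medium spiny neurons, at 63.7 CPM, against 14.3 CPM or less in the other 7 animals. The 6 oligodendrocyte genes with counts summed to 12520 to 21190 CPM in PUT, above every sample of CN (3524 to 7960 CPM) and ACb (2237 to 7169 CPM). In bulk tissue, fewer cells of a type and less RNA per cell cannot be told apart.

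**Figure D1:**
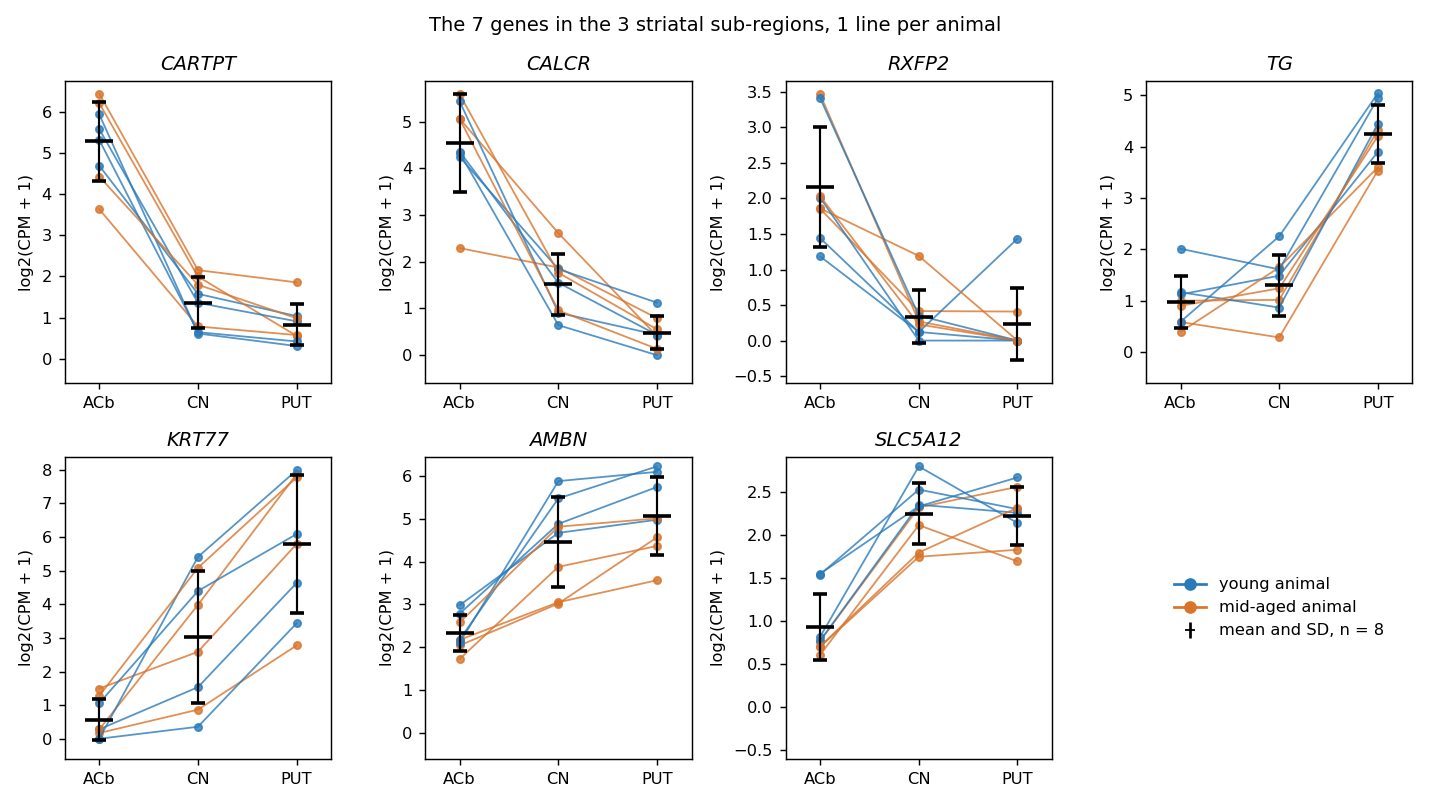
Level of each gene in ACb, CN and PUT, as log2(CPM + 1). Each line joins the 3 samples of 1 animal (blue young, orange mid-aged), and black bars give the mean and SD over 8 animals; the scale of the vertical axis differs between panels. CARTPT, CALCR and RXFP2 were highest in ACb in 8 of 8 animals, TG, KRT77 and AMBN were highest in PUT in 8 of 8, and SLC5A12 was lowest in ACb in 8 of 8.

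CARTPT, CALCR and RXFP2, a peptide precursor and 2 receptors, were the genes with the highest striatal level in ACb. CARTPT stood at 11.4, 86.5, 24.9, 73.5, 47.1, 60.7, 39.1 and 20.6 CPM in ACb of animals 2, 3, 4, 6, 7, 8, 10 and 11. It lay between 0.5263 and 3.45 CPM in CN and between 0.235 and 2.62 CPM in PUT. Every ACb sample lay above every CN and PUT sample, and the order ACb, CN, PUT held in 8 of 8 animals. The log2 fold change of ACb was 4.63 (SE 0.30) against CN and 5.69 (SE 0.33) against PUT. The ACb libraries of animals 10 and 11, which carried cortical markers, had 39.1 and 20.6 CPM of CARTPT. Without these libraries and PUT of animal 3 the log2 fold change of ACb against PUT was 6.03. ACb of animal 7, with a smaller sum of the cortical markers (38.6 CPM), was not left out there. Whether cortical tissue contributed to these levels was not tested.

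CALCR was likewise highest in ACb. Its levels there were 3.896, 32.4, 17.9, 46.9, 19.5, 42.1, 19.1 and 32.3 CPM in animals 2, 3, 4, 6, 7, 8, 10 and 11. In CN it ranged from 0.561 to 5.12 CPM and in PUT from 0 to 1.18 CPM. ACb of animal 2 was far below the other ACb samples and overlapped with CN of animal 3, although within animal 2 the order ACb, CN, PUT was the same as in the other 7 animals. On the log2 scale ACb exceeded CN by 3.64 (SE 0.40) and PUT by 5.94 (SE 0.50).

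RXFP2 was the scarcest of these 3 genes in counts. Its ACb levels were 10.1, 2.62, 1.72, 2.63, 9.65, 1.27, 3.04 and 3.09 CPM in animals 2, 3, 4, 6, 7, 8, 10 and 11, from 80, 26, 16, 25, 116, 15, 30 and 39 reads. Animals 2 and 7 were well above the other 6, which did not exceed 3.09 CPM. CN held 0 to 3 reads in 7 animals and 15 reads in animal 6, and PUT held 0 reads in 6 animals, 3 reads in animal 3 and 13 reads in animal 4. ACb was the highest of the 3 sub-regions in 8 of 8 animals, but by little in animal 4, in which PUT reached 1.70 CPM. The log2 fold change of ACb was 3.68 (SE 0.65) against CN and 4.17 (SE 0.72) against PUT. The latter was 6.33 without animal 4 and 5.81 with DESeq2, and the former was 4.62 without animal 6. The size of both thus depends on those animals, and that against PUT also on the tool. A count of 0 in a library of this depth allows up to 3 reads.

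TG and KRT77 were the genes with the highest level in PUT. TG stood at 19.01, 10.6, 13.9, 11.1, 20.7, 31.8, 29.7 and 17.4 CPM in PUT of animals 2, 3, 4, 6, 7, 8, 10 and 11. It lay between 0.316 and 3.04 CPM in ACb and between 0.223 and 3.77 CPM in CN, so that every PUT sample exceeded every other striatal sample. The lowest and the highest PUT sample differed 3.00-fold. ACb and CN were not ordered alike in the animals, with ACb lowest in 5 animals and CN lowest in 3. The log2 fold change of PUT was 4.17 (SE 0.29) against ACb and 3.54 (SE 0.27) against CN.

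KRT77 differed between animals in PUT more than TG, AMBN or SLC5A12, whose highest and lowest PUT samples were 2.40-fold to 6.78-fold apart. In PUT it stood at 5.85, 54.6, 23.8, 233, 67.1, 253, 9.82 and 218 CPM in animals 2, 3, 4, 6, 7, 8, 10 and 11. In CN the same animals had 0.822, 5.01, 1.90, 14.8, 20.0, 41.5, 0.281 and 32.9 CPM. PUT thus spanned 43.3-fold between animals and overlapped with CN. Nevertheless PUT exceeded CN, and CN exceeded ACb, in 8 of 8 animals. ACb held at most 1.82 CPM, or 18 reads. On the log2 scale PUT exceeded CN by 3.01 (SE 0.32) and ACb by 7.37 (SE 0.47), and CN exceeded ACb by 4.37 (SE 0.50). Without animal 3 the log2 fold change of ACb was -5.00 against CN and -7.98 against PUT, and without animal 8 these were -3.75 and -6.87.

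PUT samples were also the richest in oligodendrocyte markers, so TG and KRT77 were set beside the corpus callosum (CC), a white matter tract in which the same 6 marker genes summed to 90260 to 118700 CPM. TG lay between 0.966 and 2.99 CPM in CC, below every PUT sample. KRT77 had no read in CC of 7 animals and 0.193 CPM in animal 6. Of 5 interneuron marker genes, PVALB and SLC18A3 were called for PUT and the other 3 for no sub-region. PVALB averaged 0.847 CPM in ACb, 0.407 CPM in CN, 7.47 CPM in PUT and 79.8 CPM in GP, whereas SST (135, 73.5 and 78.9 CPM in ACb, CN and PUT) and NPY (124, 94.9 and 111 CPM) had their highest striatal mean in ACb. The part of these cells in the levels of TG and KRT77 was not tested.

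AMBN and SLC5A12 were low in ACb and high in both dorsal sub-regions. AMBN stood at 7.29, 7.12, 28.4, 13.7, 24.5, 57.7, 43.4 and 27.1 CPM in CN of animals 2, 3, 4, 6, 7, 8, 10 and 11, and at 10.8, 22.7, 52.4, 19.6, 30.5, 67.2, 73.5 and 31.2 CPM in PUT. ACb held 2.32 to 6.91 CPM, below every sample of CN and PUT. PUT exceeded CN in 8 of 8 animals, by a log2 fold change of 0.61 (SE 0.22). Against ACb the log2 fold change was 2.42 (SE 0.26) in CN and 3.03 (SE 0.26) in PUT.

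SLC5A12 had between 2.36 and 5.97 CPM in CN, with a median of 4.03 CPM, and between 2.24 and 5.37 CPM in PUT, with a median of 3.87 CPM. ACb lay between 0.527 and 1.93 CPM, with a median of 0.707 CPM, and did not overlap with either. CN was the higher of the dorsal sub-regions in 4 animals and PUT in the other 4. The log2 fold change over ACb was 2.01 (SE 0.22) in CN and 1.97 (SE 0.23) in PUT, and that between CN and PUT was 0.04 (SE 0.19).

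By the criterion of an edgeR adjusted p below 0.05 over the 3 sub-regions together with a fold above 2 against each of the other 2, CARTPT, CALCR and RXFP2 fell among the genes called for ACb, and TG and KRT77 among those for PUT, which describes their choice and is no test of it. AMBN and SLC5A12 were called for none, since each was high in a pair of sub-regions. Of all 14827 genes tested, 1.44% were called for ACb, 0.465% for CN and 1.30% for PUT. All 7 members passed the filter on low counts in this comparison, and since they were chosen on it nothing is read from their share.

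**Figure D2:**
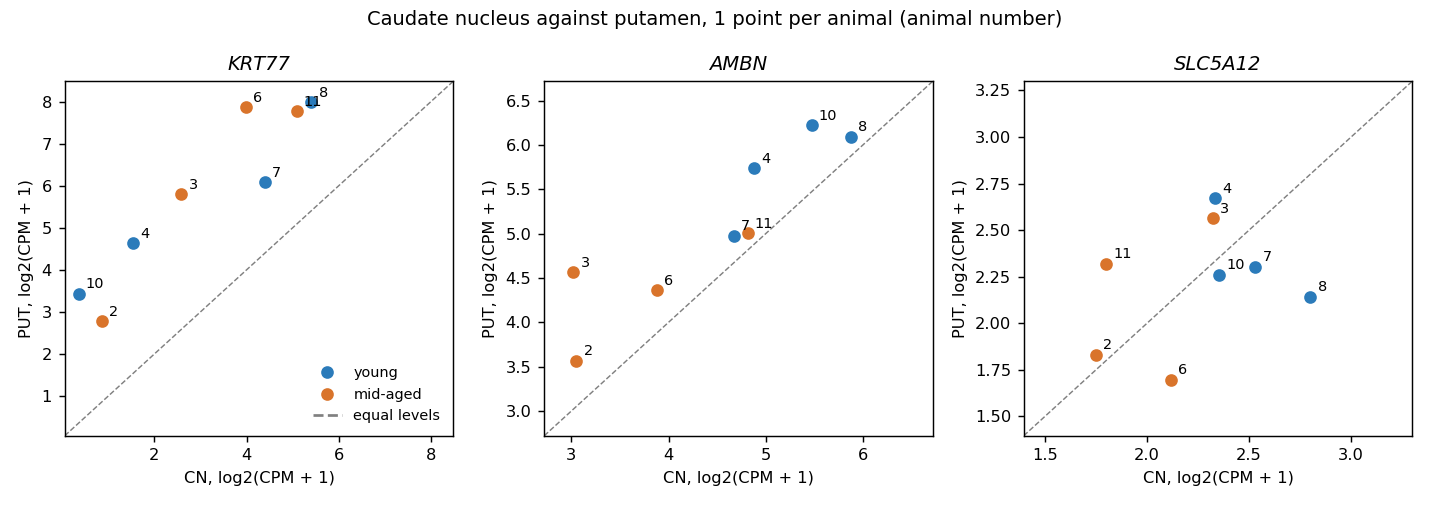
KRT77, AMBN and SLC5A12 in CN (horizontal) and PUT (vertical), as log2(CPM + 1), 1 point per animal with its number; blue points are young and orange points mid-aged animals, and the dashed line marks equal levels. KRT77 and AMBN lie above the line in all 8 animals, with r = 0.937 and 0.906, while SLC5A12 falls on both sides of the line with r = 0.325.

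The animals were ordered alike in CN and PUT for 2 of the dorsal genes. Each gene was compared with itself between each pair of striatal sub-regions over the 8 animals, 21 relations chosen after the values were seen. For KRT77, log2(CPM + 1) in CN and PUT gave Pearson r = 0.937 (exact permutation p = 0.001736, adjusted 0.0297) and Spearman rho = 0.905 (exact permutation p = 0.004563, adjusted 0.0479). Without the 2 animals farthest from the median in CN, r was 0.873, and it was 0.971 within the 4 young and 0.956 within the 4 mid-aged animals (values only). For AMBN, r was 0.906 (exact permutation p = 0.002827, adjusted 0.0297) and rho was 0.905 (exact permutation p = 0.004563, adjusted 0.0479). Without the 2 farthest animals r was 0.923, and it was 0.835 within the young and 0.716 within the mid-aged group. The other 19 relations did not pass after adjustment. For SLC5A12 between CN and PUT, r was 0.325 (exact permutation p = 0.435) and rho was 0.143 (exact permutation p = 0.752). For KRT77 between ACb and PUT, r was 0.297 (exact permutation p = 0.456) and rho was 0.0719 (exact permutation p = 0.872).

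Different genes of the same sub-region did not vary together past the threshold. Over 9 pairs, 3 in ACb and 6 in PUT, 0 had an adjusted p below 0.05, and 1 had an unadjusted p below 0.05. That pair was CARTPT and CALCR in ACb, with r = 0.784 (exact permutation p = 0.0163, adjusted 0.146) and rho = 0.786 (exact permutation p = 0.0279, adjusted 0.251). Without the 2 farthest animals r was 0.802, and it was 0.763 within the young and 0.787 within the mid-aged group. CALCR and RXFP2 in ACb gave r = -0.703 (exact permutation p = 0.0529, adjusted 0.238) and rho = -0.476 (exact permutation p = 0.243, adjusted 0.547), and r fell to -0.451 without the 2 farthest animals. In PUT, KRT77 and AMBN gave r = 0.129 (exact permutation p = 0.759, adjusted 0.829) and rho = 0.119 (exact permutation p = 0.793, adjusted 0.892), although both were ordered alike between CN and PUT. At n = 8 the precision of each r is low.

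**Figure D3:**
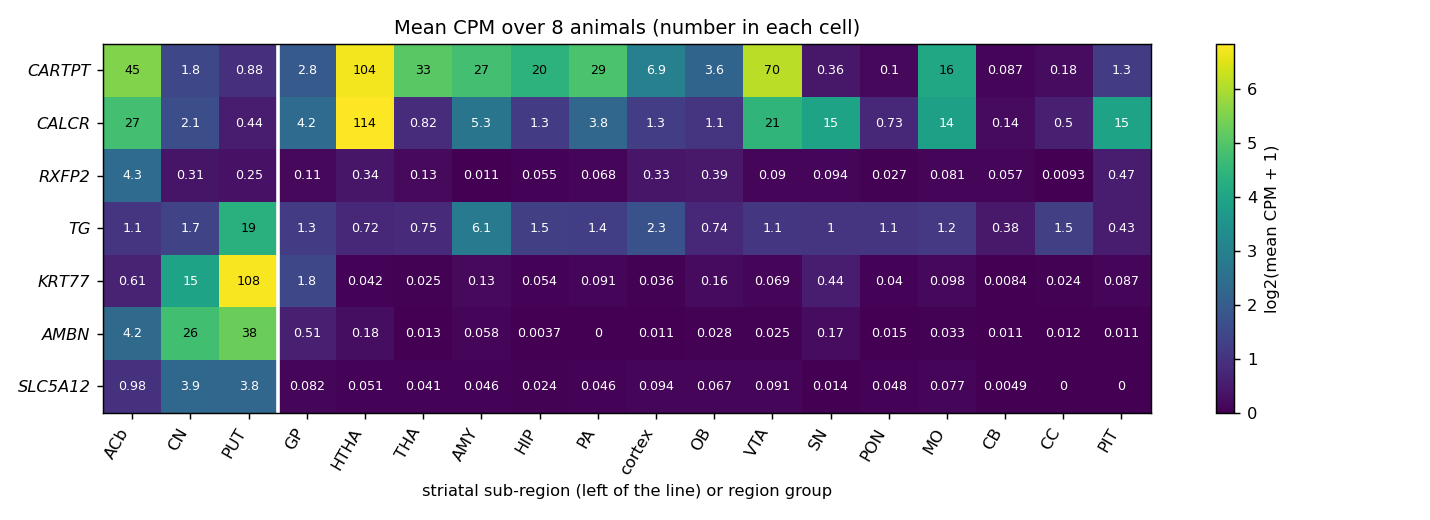
Mean CPM over 8 animals of the 7 genes (rows) in ACb, CN and PUT, left of the white line, and in the 15 region groups outside the striatum; colour gives log2(mean CPM + 1) and each cell holds the mean CPM. CARTPT and CALCR reach 104 and 114 CPM in HTHA, above their ACb means, whereas KRT77, AMBN and SLC5A12 stay at 1.80 CPM or less in every group outside the striatum.

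Outside the striatum the genes fell into those found in many regions and those almost without reads. In the 384 samples of the 48 other sub-regions, AMBN had 0 reads in 330 samples and at most 3 reads in 375. SLC5A12 had at most 3 reads in 366 of these samples and never more than 6, and KRT77 had at most 3 reads in 372. RXFP2 had at most 3 reads in 283 and a largest count of 49. CARTPT, CALCR and TG in contrast exceeded a mean of 1 CPM in 40, 32 and 42 of the 48 sub-regions.

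CARTPT was highest in HTHA, with 176, 20.99, 150, 102, 38.4, 184, 40.8 and 120 CPM in animals 2, 3, 4, 6, 7, 8, 10 and 11 (mean 104 ± 64.4, SD, n = 8). In the ventral tegmental area (VTA), which holds midbrain dopamine neurons, it was 51.5, 15.9, 258, 6.61, 0.982, 109, 116 and 2.03 CPM in the same animals. The VTA samples thus ranged from near absence to the highest value of this gene in any of the 408 samples. ACb (45.5 ± 26.6 CPM) ranked 3rd of 51 sub-regions, followed by the thalamus (33.02 ± 20.5 CPM), hippocampal CA1 (32.99 ± 28.9 CPM), the temporal polar gyrus (30.9 ± 9.27 CPM), the entorhinal and perirhinal cortex (28.9 ± 9.90 CPM) and the amygdala (26.7 ± 18.3 CPM). None of these neighbours in the order differed by more than 1 SD of the within-animal difference on the log2 scale. In the substantia nigra, next to VTA, no animal exceeded 1.01 CPM.

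**Figure D4:**
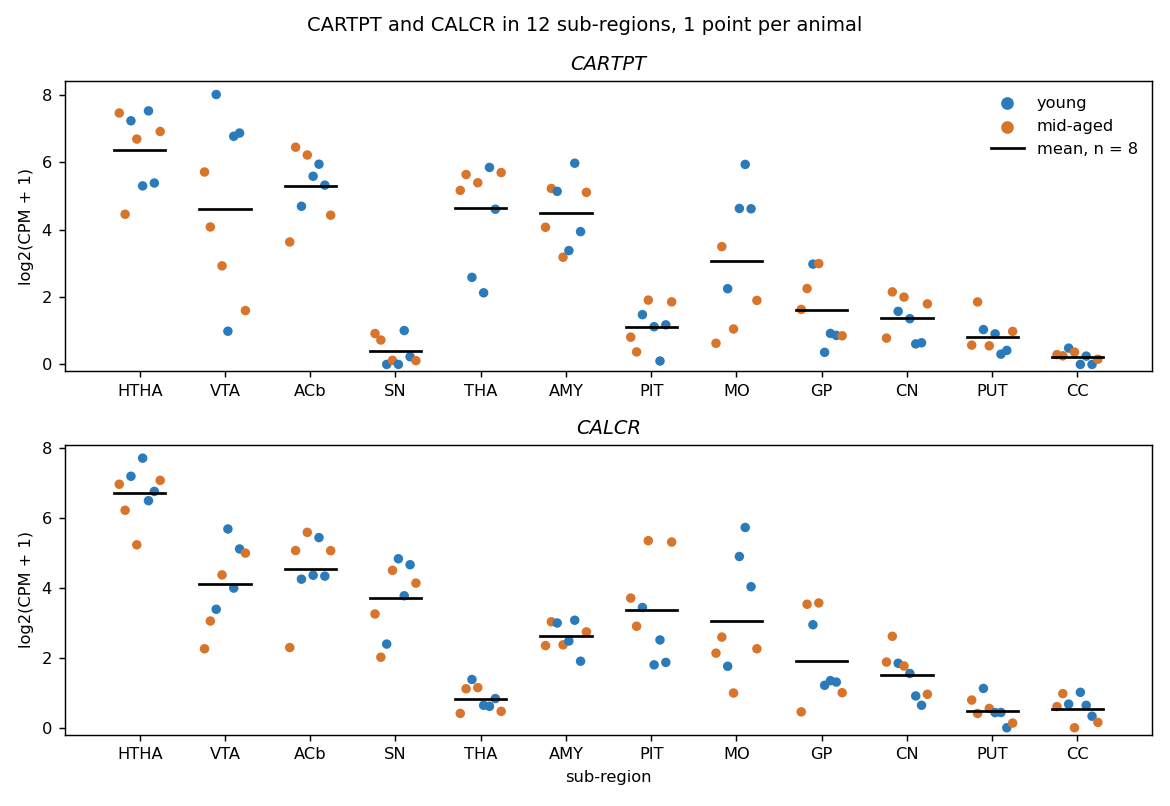
CARTPT (top) and CALCR (bottom) in 12 sub-regions, as log2(CPM + 1); each point is 1 animal (blue young, orange mid-aged) and black lines are means over 8 animals. CARTPT in VTA runs from 0.982 to 258 CPM, and CALCR in HTHA lies between 36.4 and 207 CPM.

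CALCR was also highest in HTHA, at 123, 73.1, 144, 36.4, 207, 88.6, 107 and 133 CPM in animals 2, 3, 4, 6, 7, 8, 10 and 11 (mean 114 ± 51.2, SD, n = 8). The lowest of these was animal 6, whose HTHA library carried cortical markers. ACb was 2nd in the order (26.8 ± 14.2 CPM) and lower than HTHA in 7 of 8 animals. The mean within-animal difference on the log2 scale, 2.15, exceeded its SD of 1.555. VTA (21.2 ± 15.9 CPM), the substantia nigra (14.8 ± 9.18 CPM), the pituitary (14.5 ± 15.5 CPM) and the medulla oblongata (13.9 ± 17.9 CPM) followed. None of these neighbours after ACb differed by more than 1 SD of the within-animal difference. In the medulla CALCR was 3.38, 5.02, 2.38, 0.990, 28.7, 51.7, 15.3 and 3.78 CPM in animals 2, 3, 4, 6, 7, 8, 10 and 11, and CARTPT was 0.545, 10.3, 3.75, 1.07, 23.8, 60.4, 23.6 and 2.73 CPM. Both genes were highest there in animal 8.

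Of the 7 members, CARTPT, CALCR and TG passed the filter on low counts in the comparison of the 15 region groups outside the striatum, and the other 4 were not tested there. Of 16742 genes tested, 11.3% were called for some group, 0.209% for HTHA and 0.102% for the amygdala. CALCR was called for HTHA, with a log2 fold change of 2.56 (SE 0.45) over VTA, the next group (edgeR adjusted p = 1.01e-40 over all groups). TG was called for the amygdala, with a log2 fold change of 1.44 (SE 0.28) over the cortex (edgeR adjusted p = 1.31e-20). CARTPT differed between groups (edgeR adjusted p = 1.28e-34) but was called for none, since HTHA exceeded VTA by a log2 fold change of only 0.87 (SE 0.50). Without animal 4 this difference was 1.39 and without animal 10 it was 1.32, and CARTPT was then called for HTHA.

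TG was present at a low level through most of the brain, and its level depended on the animal. In the amygdala it stood at 3.04, 1.21, 1.76, 4.33, 3.08, 3.81, 23.1 and 8.59 CPM in animals 2, 3, 4, 6, 7, 8, 10 and 11, so that animal 10 was well apart from the rest. Without animal 10 the amygdala was still called, with a log2 fold change of 1.26 over the cortex. Over the 31 cortical sub-regions the mean level was 1.195, 0.535, 0.674, 1.197, 0.5997, 3.28, 6.93 and 3.83 CPM in the same animals. In animal 10 every cortical sample lay between 2.03 and 10.6 CPM, whereas in animal 3 they lay between 0.128 and 1.61 CPM. PUT exceeded the amygdala by more than the SD of the within-animal difference and in 8 of 8 animals, and the amygdala exceeded the next sub-region, the inferior occipital gyrus, in 7 of 8.

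**Figure D5:**
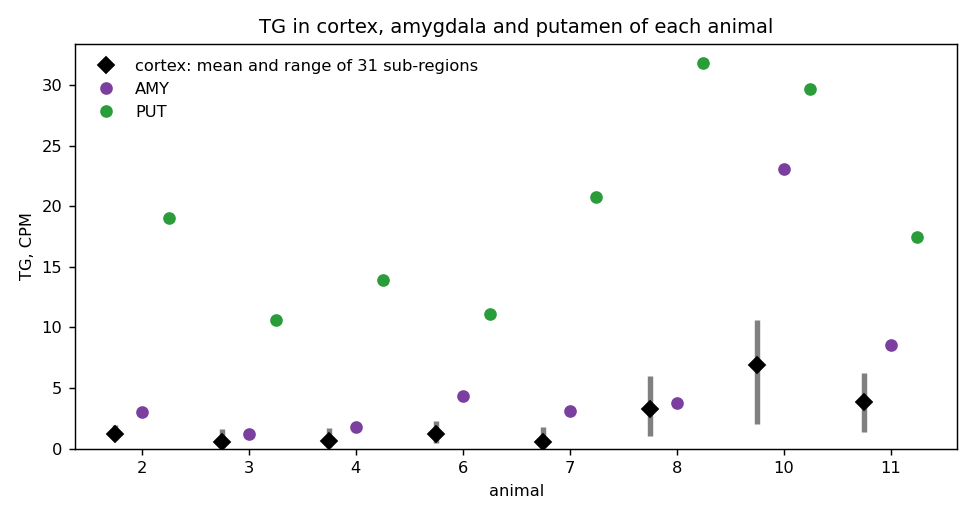
TG in CPM for each of the 8 animals; black diamonds and grey bars give the mean and the range of 31 cortical sub-regions, purple points the amygdala (AMY) and green points PUT. PUT lies above AMY and above the whole cortical range in every animal, and animal 10 has the highest cortical mean (6.93 CPM) and the highest AMY value (23.1 CPM).

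Outside the striatum KRT77 and AMBN had their highest mean in GP, which adjoins PUT. KRT77 in GP was 0, 2.99, 0.197, 1.88, 1.04, 4.79, 0.163 and 3.36 CPM in animals 2, 3, 4, 6, 7, 8, 10 and 11. The 5 animals above 1 CPM were also the 5 with the highest PUT level. AMBN in GP was at most 1.33 CPM, reached in animal 3, whose GP sample also held DRD1. In GP of animal 8, which had the highest KRT77 level there, DRD1 was 1.70 CPM. Whether striatal tissue in the GP samples contributed was not tested. RXFP2 was next highest after ACb in the insula (0.871 ± 0.488 CPM), which ACb exceeded in 8 of 8 animals. SLC5A12 outside the striatum was highest in the occipito-temporal gyrus, at 0.297 ± 0.168 CPM.

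Within the cortex, counts were summed over the sub-regions of each of 5 lobes in each animal. In this comparison 61.5% of 17478 genes were called at an edgeR adjusted p below 0.05, and 3 of the 4 members tested were called, a share close to that background. CARTPT was highest in the temporal lobe (18.3 ± 5.33 CPM, SD, n = 8) and lowest in the occipital lobe (1.90 ± 1.14 CPM), a log2 fold change of 3.32 (SE 0.19, edgeR adjusted p over lobes = 4.77e-17). CALCR was highest in the frontal lobe (1.70 ± 0.363 CPM) and lowest in the occipital lobe (0.572 ± 0.262 CPM), a log2 fold change of 1.55 (SE 0.16, edgeR adjusted p over lobes = 1.38e-09). Its frontal level was close to that of the temporal lobe (1.59 ± 0.345 CPM), with a log2 fold change of 0.09 (SE 0.13). RXFP2 ran from 0.192 ± 0.0790 CPM in the frontal lobe to 0.502 ± 0.392 CPM in the parietal lobe (edgeR adjusted p = 0.00427) and was not called without the block on animal. TG did not pass (edgeR adjusted p = 0.493), with lobe means of 1.89 to 2.77 CPM and SDs of 1.61 to 3.25 CPM between animals.

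No member was called for age stage in the striatum by edgeR. Its criterion, an adjusted p below 0.1 with an absolute log2 fold change above 1, was met by 0% of genes in ACb, 0.00681% in CN and 0% in PUT. The 7 members gave 15 tests over the 3 sub-regions after the filter on low counts. Of these 4 had an unadjusted p below 0.05 with edgeR and 3 with DESeq2, against 4.43% of the tests of all genes with edgeR. The tests share the same 8 animals. AMBN in CN and AMBN in PUT were both among the 4, and its levels there varied together over animals (r = 0.906). The 15 tests are thus not independent, and no excess is read from them. DESeq2 called 1 of the 15, AMBN in PUT.

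Among the 15 tests, AMBN had the largest fitted log2 fold changes between age stages. The mid-aged animals 2, 3, 6 and 11 had 10.8, 22.7, 19.6 and 31.2 CPM in PUT (mean 21.1 ± 8.39, SD, n = 4), and the young animals 4, 7, 8 and 10 had 52.4, 30.5, 67.2 and 73.5 CPM (mean 55.9 ± 19.1, SD, n = 4). The ranges overlapped by 1 animal on each side. The log2 fold change of mid-aged against young was -1.42 (SE 0.30) in PUT, with an edgeR p of 0.000785 that became 1.00 after adjustment. DESeq2 gave -1.42 (SE 0.31) with an adjusted p of 0.0189. In CN the means were 13.8 ± 9.38 and 38.5 ± 15.2 CPM, a log2 fold change of -1.61 (SE 0.40, edgeR adjusted p = 0.772), and in ACb they were 3.49 ± 1.12 and 4.92 ± 1.77 CPM, a log2 fold change of -0.46 (SE 0.36, edgeR adjusted p = 1.00). TG in PUT (14.5 ± 4.31 against 24.02 ± 8.28 CPM, edgeR adjusted p = 1.00) and SLC5A12 in CN (3.05 ± 0.773 against 4.73 ± 0.889 CPM, edgeR adjusted p = 0.790) were the other members with an unadjusted p below 0.05, both lower in the mid-aged animals. KRT77, with its wide spread, averaged 128 ± 115 CPM in PUT of the mid-aged group and 88.5 ± 112 CPM in that of the young.

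No member was called for sex either, with 0 of 15 tests at an unadjusted p below 0.05 and 0 called by edgeR or DESeq2. Over all genes the criterion was met by 0.0889% in ACb, 0.123% in CN and 0.0910% in PUT. Among the 15 tests, RXFP2 in ACb had the largest fitted fold, at 2.62 ± 0.633 CPM in females and 5.90 ± 4.60 CPM in males (n = 4 each), a log2 fold change of -1.17 (SE 0.61, edgeR adjusted p = 1.00). The male values rest on animals 2 and 7, and the other 2 males lay at 2.62 and 1.27 CPM.

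The pathways known for each member were then set beside it, using 7 lists of 74 genes, of which 59 had counts and 26 passed the filter on low counts. The lists were chosen with earlier results of these data known, so the adjusted p values of their genes are descriptive. Among these 26, 3 were called for ACb, 0 for CN and 1 for PUT, beside 1.44%, 0.465% and 1.30% of all genes tested. All 3 called for ACb came from the 12 tested peptides and receptors of reward circuits, the list nearest to CARTPT. TAC3, which encodes neurokinin B, stood at 36.5 CPM in ACb, 11.9 CPM in CN and 4.95 CPM in PUT, a log2 fold change of ACb of 1.51 (SE 0.26) against CN and 2.81 (SE 0.28) against PUT (edgeR adjusted p = 3.62e-07). CRH, the corticotropin-releasing hormone, stood at 6.23, 1.92 and 0.442 CPM, with log2 fold changes of 1.95 (SE 0.33) and 3.93 (SE 0.41, edgeR adjusted p = 3.85e-07). NTS, neurotensin, stood at 5.84, 2.22 and 0.754 CPM, with log2 fold changes of 1.57 (SE 0.43) and 2.99 (SE 0.51, edgeR adjusted p = 0.000157). As for CARTPT and CALCR, their means fell in the order ACb, CN, PUT, but single animals departed from it. In animal 2, ACb was below CN for TAC3 (12.95 against 15.9 CPM) and for NTS (0.754 against 1.54 CPM). PUT exceeded CN in some animals, as for NTS in animal 11 (1.17 against 0.599 CPM). The median log2 fold change of the 12 genes was 0.25 for ACb against CN and 1.21 for ACb against PUT, beside 0.01 and 0.00 over all genes tested. Not all of the 12 were highest in ACb. TAC1 was lowest there (345, 585 and 608 CPM in ACb, CN and PUT). PENK had its highest mean in CN (1713, 2230 and 1167 CPM), as did OPRM1 and GLP1R. PDYN and DRD3 were about equal in ACb and CN and lower in PUT.

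None of the tested partners and relatives of CALCR and RXFP2 was called for ACb. Of the calcitonin family, 5 genes had counts, 3 were tested and 0 were called. CALCRL, the receptor for CGRP and adrenomedullin, had 25.9, 21.1 and 16.5 CPM in ACb, CN and PUT, and RAMP2, an accessory protein of this receptor family, had 7.47, 8.95 and 10.1 CPM. RAMP1 and RAMP3 were not analysed here. Of the relaxin family only RXFP1, the relaxin receptor, was tested, with 19.5, 14.6 and 12.97 CPM and no call. INSL3, the ligand of RXFP2, named after its values were seen, averaged 0.0341 CPM over the striatum, and RXFP4 averaged 0.134 CPM.

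The genes that act with TG in the thyroid were mostly near absence in the striatum. Of 11 thyroid hormone synthesis genes, 3 were tested and 0 called. TSHR, the receptor for thyrotropin, had 5.52, 8.00 and 3.47 CPM in ACb, CN and PUT, and NKX2-1, a transcription factor of thyroid and forebrain, had 1.48, 1.81 and 1.64 CPM. SLC5A5, the iodide transporter, named after its values were seen, averaged 0.0127 CPM over the striatum.

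The enamel and keratin lists had no gene above the filter, so 0 of 5 and 0 of 9 genes with counts were tested. Of the enamel list, AMELX (amelogenin) and KLK4 (an enamel protease) were highest, at 0.374 and 0.0531 CPM over the striatum. Of the keratins, KRT1 and KRT7 were highest, at 1.12 and 0.113 CPM. With the detection rule of the study in place of the filter, AMELX and KRT1 were both called for PUT. AMELX stood at 0.122, 0.546, 0.262, 1.12, 1.14, 2.47, 1.12 and 0.682 CPM in PUT of animals 2, 3, 4, 6, 7, 8, 10 and 11, and KRT1 at 0.366, 2.73, 1.31, 6.91, 0.350, 3.65, 0.893 and 4.87 CPM. Keratin genes resemble one another in sequence, and how reads shared between them were counted was not given.

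Of the 7 tested transporters of the monocarboxylate and SLC5 list, SLC5A11, an inositol transporter, was called for PUT. It stood at 10.8, 14.3 and 32.3 CPM in ACb, CN and PUT, a log2 fold change of PUT of 1.21 against CN (edgeR adjusted p = 1.01e-06), and at a mean of 129 CPM in CC. SLC5A8, the other sodium-coupled monocarboxylate transporter, was named after its values were seen. It had 3.40 CPM in ACb, 2.01 CPM in CN and 0.303 CPM in PUT.

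The nearest annotated genes on either side of 6 members were examined in the same way, KRT77 not being placed in the reference used for gene order. Of 25 such genes 17 were tested, and 1 was called, NDRG1 beside TG, for PUT, beside 1.30% of all genes tested. NDRG1, a gene of myelinating glia, had 87.5, 143 and 339 CPM in ACb, CN and PUT and 1913 CPM in CC, where TG was low. SLA, which overlaps TG, had 7.24, 9.73 and 8.46 CPM and was not called. ANO3, a membrane protein gene beside SLC5A12 that was named after its values were seen, had 636, 1897 and 2315 CPM. Its ACb level was lower in 8 of 8 animals than that of either dorsal sub-region, as for SLC5A12, and the whole striatum lay far above CC (6.09 CPM) and HTHA (19.7 CPM). Of the 4 tested genes beside CARTPT none was called, and their median log2 fold change of ACb against CN was -0.06. One of them, MCCC2, which encodes a subunit of a carboxylase of leucine breakdown and was named after its values were seen, had 39.3, 23.9 and 26.1 CPM in ACb, CN and PUT (log2 fold change of ACb against CN 0.75, SE 0.12, edgeR adjusted p over the 3 sub-regions = 6.96e-05).

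Among 13212 genes with a symbol and a mean of at least 1 CPM in some sub-region, the genes nearest to each member were found by the Pearson correlation of mean log2(CPM + 1) over the 51 sub-regions, which share animals and libraries. These 51 include the 3 striatal sub-regions whose counts chose the members, so no r here tests that choice. AMBN and SLC5A12 had few reads elsewhere, and their r rests largely on those 3 sub-regions. AMBN and SLC5A12 were each other's nearest gene (r = 0.978), and both were near PTPN7, a tyrosine phosphatase (r = 0.967 and 0.928). CKM, the muscle creatine kinase (r = 0.946), came next for AMBN, and RIC8B, a G protein chaperone (r = 0.925), came next for SLC5A12. With a pseudocount of 0.1 the nearest gene was KRT77 for AMBN (r = 0.921) and RIC8B for SLC5A12 (r = 0.912). That AMBN and SLC5A12 were each other's nearest thus depends on the pseudocount. KRT77 was nearest to ADGRG7, an adhesion receptor with 0.0842, 10.0 and 17.9 CPM in ACb, CN and PUT (r = 0.946), followed by AMBN (r = 0.931) and SLC5A12 (r = 0.899). Over the 48 sub-regions outside the striatum, where all 3 members had few reads, KRT77 and AMBN had r = 0.885, and SLC5A12 was no longer among the 3 nearest genes of either. These 48 include GP, where KRT77 (1.80 CPM) and AMBN (0.509 CPM) had their highest means outside the striatum. The part of GP in this r was not tested.

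For RXFP2 the nearest genes were SAG, the arrestin of photoreceptors (r = 0.716), IMPG2, a proteoglycan of the retina (r = 0.658), and C2H3orf22 (r = 0.640), all 3 highest in ACb. None of these 3 remained among the nearest with a pseudocount of 0.1 or over the 48 sub-regions outside the striatum. SAG had 2.63, 0.752 and 0.206 CPM in ACb, CN and PUT. TG was nearest to MCIDAS, a regulator of multiciliated cells (r = 0.783), SPA17, a sperm protein gene (r = 0.773), and TMPRSS9, a serine protease gene (r = 0.694), all 3 highest in PUT. SPA17 had 3.57, 4.70 and 27.6 CPM in ACb, CN and PUT.

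CARTPT was nearest to STK32B, a kinase gene (r = 0.805), NDN, which encodes necdin (r = 0.739), and CPA5, a carboxypeptidase gene (r = 0.733), all 3 highest in HTHA. CALCR was nearest to IZUMO4 (r = 0.865), IMPACT, a translation regulator (r = 0.851), and SMIM1 (r = 0.847), of which IMPACT and SMIM1 were highest in HTHA. None of the other members was among the 3 nearest genes of CARTPT, CALCR, RXFP2 or TG. CARTPT and CALCR had r = 0.491 with each other, and RXFP2 had r = 0.217 with CARTPT and 0.267 with CALCR, although all 3 were highest in ACb within the striatum.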

How the data were processed

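RNA of 51 sub-regions of 8 rhesus macaques was analysed, from the deposited whole-number counts per gene, which the authors did not normalize. Per the paper's methods and the submitters' processing notes, the authors used Trim Galore 0.4.4 for trimming, HISAT2 2.0.5 for alignment to Mmul 8.0.1 and HTSeq 0.6.1 for counting. The libraries were directional, but how HTSeq was set for strand and for overlaps is not given in the sources used here, so overlapping genes (TG and SLA) and similar copies (keratins) are uncertain. Midbrain and ATAC-seq samples were not analysed here.

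Symbols came from a reference table (17572 of 30807 genes), and gene order came from a RefSeq table of another assembly, with no coordinates used. The 7 members and all gene lists were chosen with earlier results of these data known. Samples were grouped by the labelled sub-region, animal, sex and age. Replicates were the 8 animals, and no 2 striatal samples of a sub-region agreed within counting noise.

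Counts were tested in R 4.3.3 with edgeR 4.0.16 (TMM, filterByExpr, quasi-likelihood F test, Benjamini-Hochberg adjustment over all genes tested). The animal was a block in the fits of sub-regions, region groups and lobes, as the study's own test had, since same-numbered samples come from the same animal. Counts of groups and lobes were summed within each animal. A sub-region or region group was called at an adjusted p below 0.05 and a fold above 2 over each other one, lobes at 0.05, and age stage (with sex as covariate) or sex (with age stage) at 0.1 and an absolute log2 fold change above 1. The SE of a log2 fold change is its size divided by the root of its F statistic. Correlations over animals used exact two-sided permutation tests on log2(CPM + 1). Genes named were the members, the 3 genes nearest in pattern to each, list or neighbour genes called, and the 2 highest genes of each list with none called. The fits were tested on simulated data with known changes. Alternatives were DESeq2 1.42.0, its size factors, the study's detection rule (a count above 1 in at least 3 samples), no filter, a fold above 4, no block or covariate, a pseudocount of 0.1 and each animal left out. Leaving out 3 striatal libraries with cortical markers was added after the data were seen. Tables were made with Python 3.11.15, pandas 2.3.3, numpy 2.4.6 and scipy 1.17.1, and figures with matplotlib 3.10.9. At 7784678 to 31083490 counts per sample, genes with few counts are imprecise.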

Additional observations from a re-analysis of the deposited data

Results flagged for a closer look

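Of 21 groups of 8 samples (7 genes in 3 striatal sub-regions), 4 held a sample far from the rest on the log2(CPM + 1) scale. The rule used flags about 1 in 20 groups by chance when values are normally spread. That rate cannot be applied to groups with few reads, such as RXFP2 in CN and PUT. CALCR in ACb of animal 2 was low, at 3.896 CPM, with the nearest animal at 17.9 CPM. CARTPT in PUT of animal 3 was high, at 2.62 CPM, with the nearest at 1.05 CPM, and this is the PUT library with cortical markers. RXFP2 in CN of animal 6 was high, at 1.28 CPM against 0.334 CPM in the nearest animal. RXFP2 in PUT of animal 4 was high, at 1.70 CPM against 0.327 CPM. The cause of these values was not tested.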

How the results depend on the processing

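The 5 members with a striatal call had been chosen on that contrast, so their calls under other settings are no sign of stability. List genes called numbered 4, and 0 with a fold above 4, 11 with the study's detection rule, 11 with no filter, 4 to 6 without an animal and 6 without the 3 libraries with cortical markers. Neighbours called numbered 1, and 0 with a fold above 4. Members called for a region group numbered 2, and 1 with a fold above 4 (CALCR), 4 with the detection rule and 4 with no filter (KRT77 and AMBN added, for GP, since they were then tested), and 2 to 4 without an animal (4 without animal 4 or 10, with CARTPT for HTHA and KRT77 for GP added, and 3 without animal 2, with KRT77). For age, DESeq2 called 1 member in place of 0. Of the 9 pairs over animals, 0 to 1 passed without an animal, the 1 being without animal 11. With no replicate block, the numbers of members, list genes and neighbours called in the striatum were 5, 4 and 1, of members called for a region group 2 and over lobes 2 (RXFP2 lost), against 3 with it. Over all genes, calls for ACb, CN and PUT numbered 214, 69 and 193, and 33, 4 and 19 with a fold above 4, 370, 162 and 258 with the detection rule, 344, 145 and 243 with no filter, while CN had 45 without animal 3. Region groups had 1886 calls, and 566, 3171 and 3024 in these 3 settings. Lobes had 10753, and 5416 with no replicate block. For age in ACb, CN and PUT, edgeR called 0, 1 and 0 genes and DESeq2 4, 13 and 13. Of the 21 nearest genes, 11 remained with a pseudocount of 0.1 and 5 without the striatum, with 0 of 3 for RXFP2 in either. RXFP2 in PUT against CN had a log2 fold change of -0.49 (SE 1.01), and -2.68 without animal 4 and 0.59 without animal 6. Except where a filter changed the genes tested, the cause was not tested. Depth limits RXFP2 most, with at most 3 reads in 14 of 24 striatal samples.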
